A study of Homo sapiens with 18 samples.

Results

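ELMO and DOCK proteins act as one machine: an ELMO subunit binds a DOCK subunit, and the DOCK subunit loads GTP onto the small GTPase RAC1, which then drives actin remodelling, migration and the engulfment of dying cells. The genes described here are the 3 ELMO genes ELMO1, ELMO2 and ELMO3, the DOCK genes DOCK1, DOCK4, DOCK5, DOCK6 and DOCK9, and RAC1. They were found in the gene count table by their symbols, 9 of 62754 genes listed, and all 9 were among the 15167 genes that passed the filter on low counts. The question was whether the paralogs and partners of ELMO1 shifted when ELMO1 was knocked down.

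The cells were EA.hy926, a human umbilical vein endothelial line made by fusion with the A549 lung epithelial line, and 6 conditions of 3 biological replicates each were sequenced. Mock cells were given only the lipid reagent. The siNT group was transfected with control siRNA without a target and the siELMO1 group with pooled siRNAs to ELMO1, at 10 nM in each case. Poly(I:C), a synthetic double-stranded RNA that stimulates Toll-like receptor 3, was added to 1 μg/ml at 48 h after transfection, and cells were collected just before it (0 h) or after 24 h of exposure. Mock cells therefore differed from both siRNA groups in carrying no siRNA at all, and all 24 h cells had seen poly(I:C). No group was kept for those 24 h without poly(I:C). The 24 h against 0 h values and their differences between transfections therefore also hold 24 h more in culture. That part cannot be told apart from poly(I:C). The paper reports widespread cell death in siNT cultures after poly(I:C), and far less of it in Mock and siELMO1 cultures. How far such death enters the siNT values at 24 h, and every contrast that uses them, was not tested. Per the methods, cells were kept in low serum overnight before poly(I:C). EA.hy926 is a single fused line, and it models endothelium with an epithelial background. Of 13 endothelial markers 11 averaged at least 1 CPM (read counts scaled to library size) in every condition, with CDH5, the cadherin of endothelial junctions, between 353 and 915 CPM, while the endothelial markers CLDN5 and EMCN were at or near 0. Of 9 epithelial markers, the keratins KRT7, KRT8 and KRT18 were abundant, CDH1, SFTPC and NKX2-1 were at 0, and none of 6 blood cell markers reached 1 CPM. The summed endothelial markers ranged from 2193 to 2416 CPM in the control libraries at 0 h and from 3087 to 3311 CPM in the siELMO1 libraries. The summed epithelial markers ranged from 1516 to 1911 CPM and from 2100.2 to 2223 CPM in the same libraries. Of 6 smooth muscle and fibroblast markers, ACTA2 alone reached 1 CPM, with DCN and LUM at 0, and their sum ranged from 5.09 to 10.6 CPM in the controls and from 16.6 to 18.7 CPM in siELMO1. At 24 h the endothelial sum ranged from 1611 to 2317 CPM in the controls and from 2830 to 3431 CPM in siELMO1. Not every endothelial marker followed the sum. For PECAM1 the siELMO1 mean at 0 h (224 CPM) lay between those of Mock (164 CPM) and siNT (314 CPM). EGFL7 was likewise lower after siELMO1 (208 CPM) than after siNT (311 CPM) at 0 h. CDH5 went with the sum, its siELMO1 mean of 776 CPM exceeding both Mock (353 CPM) and siNT (438 CPM) at 0 h. The part of these marker differences in the results below was not tested. The library of siELMO1 replicate 1 at 0 h stood apart from the other 2 of its group, with a chi-square per degree of freedom over genes of 70.9 and 79.1, whereas no other pair of replicates exceeded 29.2. Without it, the same 9 and 7 of the 9 genes were called against siNT and against Mock at 0 h, each in the same direction, and the log2 fold changes against siNT ran from -3.01 for ELMO1 to 1.33 for DOCK1. DOCK9 newly passed without it for poly(I:C) in siELMO1 (log2 -0.20, edgeR adjusted p = 0.023) and for the siELMO1 minus siNT response (-0.28, edgeR adjusted p = 0.025), and no other call on the 9 genes changed.

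DOCK proteins that pair with ELMO belong to the subgroups of DOCK1, DOCK4 and DOCK5, which activate RAC1. DOCK6 and DOCK9 belong to other subgroups that are not known to need ELMO, DOCK9 acting mainly on the related GTPase CDC42. ELMO1 itself is known for its part in cell migration and in the uptake of apoptotic cells.

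Because the siRNAs were directed at ELMO1, sequence shared between ELMO1 and its paralogs was examined first, and the longest shared stretch is shown here. In the main transcripts of GENCODE, ELMO1-201 and ELMO2-201 had 20 identical bases in a row at most, in coding exon 13 of 22 in both genes. The 30 bases around that stretch are given below as they read in the transcript, with the shared bases in capitals. They come from GRCh38 chr7:37211487-37211516 and chr20:46375340-46375369, both on the minus strand.
ELMO1-201: ctcagAGGGACATCATATTTGAACTtcgaa
ELMO2-201: ctcaaAGGGACATCATATTTGAACTgagga
Of all windows of 19 bases, the length of the paired core of an siRNA, ELMO1-201 and ELMO2-201 shared 3, and ELMO1-201 and the main ELMO3 transcript shared 0. The sequences of the siRNAs used were not examined here, so nothing follows from these stretches for whether a given siRNA could reach a paralog. The paper reports a BLAST search of its ELMO1 siRNA sequences in which only ELMO1 was matched. ELMO1 had no stretch of 100 bases or more in common with any other gene of the annotation. RAC1 had such a stretch, of 355 bases, with the processed pseudogene RAC1P2, which received 4329 counts over all libraries against 270221 for RAC1, so a small share of RAC1 reads could be placed at the pseudogene. RAC1 and RAC2 shared 33 bases in a row at most, and DOCK1 and DOCK5 shared 23.

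ELMO1 was the targeted gene, and its level fell in every siELMO1 library. ELMO1 (ENSG00000155849.16) lies at chr7:36852906-37449223 on the minus strand of GRCh38, and the 6 annotated genes on its other strand received between 0 and 2 counts in any library. At 0 h its level was 3.04, 2.98 and 3.03 CPM in the Mock libraries, 2.85, 2.66 and 3.32 CPM in the siNT libraries, and 0.30, 0.30 and 0.42 CPM in the siELMO1 libraries. At 24 h it was 1.52, 2.98 and 2.45 CPM in Mock, 3.38, 2.98 and 3.58 CPM with siNT, and 0.29, 0.16 and 0.36 CPM with siELMO1. No siELMO1 library overlapped a control library at either time, and Mock replicate 1 at 24 h was the lowest control. These levels rested on few reads, 80 to 237 counts in the control libraries and 10 to 22 in the siELMO1 libraries. Against siNT the level fell 8.65-fold at 0 h (log2 fold change -3.11 ± 0.28 (SE), edgeR adjusted p = 2.7e-08) and 12.5-fold at 24 h (log2 fold change -3.64 ± 0.29, edgeR adjusted p = 1.4e-08). Against Mock it fell 8.86-fold at 0 h and 8.73-fold at 24 h (edgeR adjusted p = 4.5e-08 and 1.2e-07). Poly(I:C) gave no call for ELMO1 in any transfection, with log2 fold changes of -0.38 ± 0.24 in Mock, 0.17 ± 0.24 in siNT and -0.36 ± 0.31 in siELMO1.

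Per transcript length, ELMO1 was a minor ELMO gene in these cells before any knockdown. On the TPM scale, computed from the transcript counts divided by their lengths and scaled to one sum per library, ELMO1 stood at 1.86 ± 0.21 (SD, n = 3) in Mock at 0 h, ELMO3 at 1.28 ± 0.42 and ELMO2 at 41.3 ± 0.7. ELMO2 thus held 92.9% of the ELMO transcripts in Mock and 93.4% in siNT at 0 h, and ELMO1 held 4.19% and 3.20%. In the siELMO1 cells the share of ELMO1 was 0.352% at 0 h and 0.219% at 24 h, while the summed ELMO transcripts came to 54.2 ± 3.0 TPM at 0 h, against 50.3 ± 3.3 TPM in siNT and 44.5 ± 0.3 TPM in Mock. These sums follow ELMO2, the gene that makes up most of them.

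**Figure D1:**
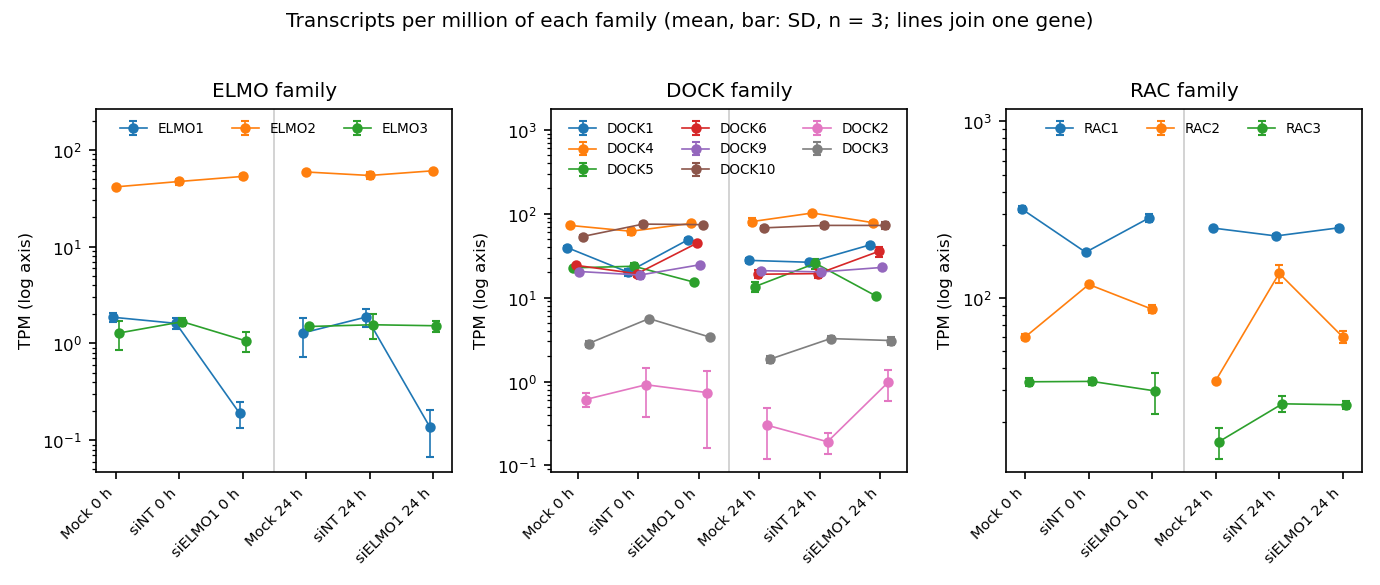
Mean TPM (log axis) of ELMO, DOCK and RAC genes in the 6 conditions, with bars for the SD over 3 libraries and lines joining the 3 transfections of one time. ELMO2 stands between 41.3 and 60.6 TPM in every condition, far above ELMO1 and ELMO3, and ELMO1 drops to 0.19 and 0.14 TPM in siELMO1.

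All 9 genes differed between siELMO1 and siNT at 0 h, 6 higher and 3 lower, in a comparison in which 62.6% of all genes tested were called. Against Mock at 0 h, 7 of 9 were called (5 higher, 2 lower), with 50.2% of all genes called. At 24 h the numbers were 7 of 9 against siNT (4 higher, 3 lower; background 52.6%) and 4 of 9 against Mock (2 higher, 2 lower; background 43.6%). A gene higher than both controls at 0 h, as 18.0% of all genes were, was found for ELMO2, DOCK1, DOCK4, DOCK6 and DOCK9, and a gene lower than both, as 16.7% were, for ELMO1 and DOCK5. At 24 h DOCK1 and DOCK6 were higher than both controls (12.2% of all genes) and ELMO1 and DOCK5 were lower than both (11.3%). Comparisons against the 2 controls share the siELMO1 libraries, and comparisons of one control share that control, so they are not independent of each other. The shares called among the 9 genes are small counts set against backgrounds this high, and the sizes and the order of the libraries are given gene by gene.

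**Figure D2:**
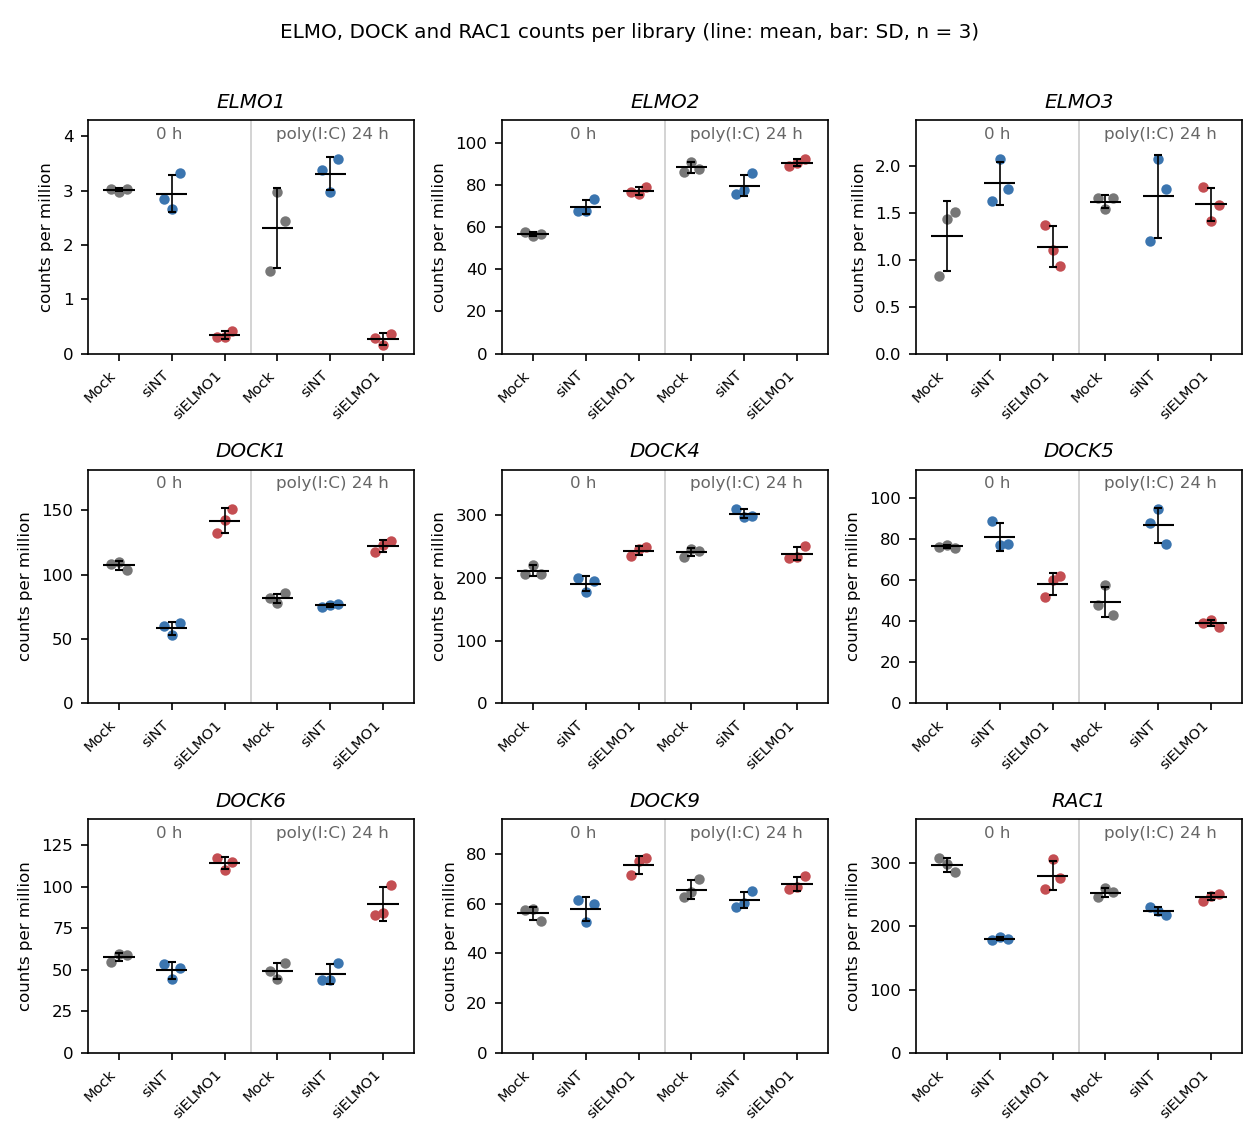
CPM in each library (points) for the 9 genes, by transfection and time, with the mean (line) and SD (bar) of 3 libraries; every vertical axis starts at 0. DOCK1 and DOCK6 are highest in siELMO1 at both times, DOCK5 is lowest in siELMO1 at both times, and RAC1 is lowest in siNT.

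Among the paralogs of ELMO1, ELMO2 was modestly higher after the knockdown at 0 h. ELMO2 (ENSG00000062598.18, chr20:46366050-46432985) had the most abundant transcripts of the ELMO genes in these cells, and ELMO2 protein was not measured. Its level at 0 h was 57.6, 55.8 and 57.0 CPM in Mock, 67.8, 67.6 and 73.2 CPM with siNT, and 76.6, 75.6 and 79.1 CPM with siELMO1. The 3 groups did not overlap by CPM, and siNT lay between Mock and siELMO1. By TPM, siELMO1 replicate 2 (49.6) lay below siNT replicate 3 (50.7). The rise was 1.11-fold against siNT (log2 0.15 ± 0.05, edgeR adjusted p = 0.013) and 1.36-fold against Mock (log2 0.44 ± 0.05, edgeR adjusted p = 7.0e-07). The call against siNT was lost without siNT replicate 1, siNT replicate 2 or siELMO1 replicate 3 (adjusted p = 0.056, 0.057 and 0.050), and with no filter on low counts (adjusted p = 0.115). At 24 h, ELMO2 was at 86.2, 91.1 and 87.8 CPM in Mock, 75.9, 77.8 and 85.5 CPM with siNT, and 89.3, 90.5 and 92.3 CPM with siELMO1. Here siELMO1 lay above siNT by 1.14-fold (edgeR adjusted p = 0.0039) and overlapped Mock by CPM (log2 0.04 ± 0.05). By TPM the siELMO1 libraries (59.6 to 61.9) lay just above the Mock libraries (57.7 to 59.5).

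ELMO3 (ENSG00000102890.16, chr16:67199111-67204029), the third ELMO paralog, had between 44 and 126 counts per library. Its level at 0 h was 0.82, 1.43 and 1.51 CPM in Mock, 1.63, 2.07 and 1.75 CPM with siNT, and 1.37, 1.10 and 0.94 CPM with siELMO1. The siELMO1 libraries lay below every siNT library and within the range of Mock. The log2 fold change against siNT was -0.67 ± 0.25 (edgeR adjusted p = 0.030), and this call was lost without siNT replicate 2, siELMO1 replicate 2 or siELMO1 replicate 3 (adjusted p = 0.101, 0.070 and 0.111). Against Mock at 0 h the value was -0.14 ± 0.25, and at 24 h the values were -0.08 ± 0.25 against siNT and -0.03 ± 0.25 against Mock, none of them called.

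DOCK1, the founding partner of ELMO1 and an activator of RAC1, was higher after the knockdown at both times. DOCK1 (ENSG00000150760.13) lies at chr10:126905409-127452517. At 0 h it was at 108, 109.7 and 103 CPM in Mock, 59.6, 52.8 and 62.4 CPM with siNT, and 132, 143 and 151 CPM with siELMO1. Every siELMO1 library was above every control, and every siNT library was far below Mock. The rise was therefore 2.43-fold against siNT (log2 1.28 ± 0.06, edgeR adjusted p = 5.5e-12) but 1.32-fold against Mock (log2 0.41 ± 0.06, edgeR adjusted p = 2.1e-05). At 24 h DOCK1 was at 81.4, 78.0 and 85.3 CPM in Mock, 74.8, 76.3 and 76.9 CPM with siNT, and 117, 123 and 126 CPM with siELMO1. With the controls now close to each other, the log2 fold changes were 0.68 ± 0.06 against siNT and 0.58 ± 0.06 against Mock (edgeR adjusted p = 5.9e-08 and 5.3e-07).

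DOCK6, which acts on RAC1 and CDC42, showed the most even rise across the 4 comparisons. DOCK6 (ENSG00000130158.14) lies at chr19:11199295-11262524. At 0 h its level was 54.8, 59.4 and 58.9 CPM in Mock, 53.7, 44.2 and 51.2 CPM with siNT, and 117, 110.3 and 115 CPM with siELMO1. The 3 siELMO1 libraries stood apart from all controls, whose ranges were below 60 CPM. DOCK6 rose 2.30-fold against siNT (log2 1.20 ± 0.10, edgeR adjusted p = 6.0e-09) and 1.98-fold against Mock (log2 0.98 ± 0.10, edgeR adjusted p = 1.4e-07). At 24 h it was at 49.3, 44.4 and 54.0 CPM in Mock, 44.1, 44.05 and 54.3 CPM with siNT, and 83.1, 84.3 and 101 CPM with siELMO1. The rise was 1.88-fold against siNT and 1.82-fold against Mock (edgeR adjusted p = 5.0e-07 and 1.3e-06). The gene of the lipoprotein lipase inhibitor ANGPTL8, which lies on the other strand within DOCK6, received at most 7 counts in any library.

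DOCK5, a close relative of DOCK1, went the other way and was lower after the knockdown. DOCK5 (ENSG00000147459.18) lies at chr8:25184689-25418082. At 0 h it was at 76.2, 77.2 and 75.6 CPM in Mock, 88.6, 76.9 and 77.4 CPM with siNT, and 52.0, 60.0 and 61.9 CPM with siELMO1. The siELMO1 libraries were below all controls, and Mock and siNT overlapped. DOCK5 fell 1.40-fold against siNT (log2 -0.48 ± 0.09, edgeR adjusted p = 2.5e-04) and 1.32-fold against Mock (log2 -0.40 ± 0.09, edgeR adjusted p = 0.0019). At 24 h its level was 47.9, 57.4 and 42.9 CPM in Mock, 87.6, 94.7 and 77.4 CPM with siNT, and 39.0, 40.4 and 37.3 CPM with siELMO1. Both the siELMO1 and the Mock libraries were now far below siNT. The fall was 2.22-fold against siNT (log2 -1.15 ± 0.10, edgeR adjusted p = 2.8e-08) and 1.27-fold against Mock (log2 -0.34 ± 0.10, edgeR adjusted p = 0.0074), and the latter call was lost without Mock replicate 2 at 24 h (adjusted p = 0.063).

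DOCK4, another RAC1 activator that pairs with ELMO, was the DOCK member with the highest counts, and its direction depended on the time. DOCK4 (ENSG00000128512.24) lies at chr7:111726110-112206407. At 0 h it was at 207, 221 and 207 CPM in Mock, 200.1, 177 and 195 CPM with siNT, and 235, 246 and 249 CPM with siELMO1. The siELMO1 libraries were the highest by CPM, by 1.28-fold against siNT (log2 0.35 ± 0.05, edgeR adjusted p = 9.2e-06) and 1.15-fold against Mock (log2 0.20 ± 0.05, edgeR adjusted p = 0.0028). By TPM, siELMO1 replicate 2 (73.8) lay below Mock replicate 2 (74.3). At 24 h it was at 234, 246 and 243 CPM in Mock, 310.4, 298 and 299 CPM with siNT, and 232, 233 and 251 CPM with siELMO1. Now siNT stood above both other groups, so that DOCK4 was 1.27-fold lower in siELMO1 than in siNT (log2 -0.34 ± 0.05, edgeR adjusted p = 2.2e-05) and overlapped Mock (log2 -0.02 ± 0.05).

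DOCK9 (ENSG00000088387.22, chr13:98793429-99086625) rose at 0 h, and neither comparison at 24 h passed the test. At 0 h its level was 57.3, 57.9 and 53.1 CPM in Mock, 61.5, 52.5 and 59.8 CPM with siNT, and 71.6, 77.2 and 78.2 CPM with siELMO1. The controls overlapped and siELMO1 lay above both, 1.31-fold against siNT (log2 0.38 ± 0.07, edgeR adjusted p = 5.6e-05) and 1.35-fold against Mock (log2 0.43 ± 0.07, edgeR adjusted p = 2.6e-05). At 24 h the log2 differences were 0.15 ± 0.07 against siNT and 0.05 ± 0.07 against Mock (edgeR adjusted p = 0.068 and 0.59). The levels then ran from 58.7 to 64.9 CPM in siNT, from 62.5 to 69.8 CPM in Mock and from 65.8 to 71.0 CPM in siELMO1.

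RAC1, the GTPase that the complex activates, differed mainly in the siNT control. RAC1 (ENSG00000136238.20) lies at chr7:6374527-6403967, with no annotated gene overlapping it. At 0 h it was at 308, 299 and 286 CPM in Mock, 178, 183 and 181 CPM with siNT, and 259.7, 306 and 276 CPM with siELMO1. By CPM the siELMO1 libraries overlapped Mock, and every siNT library was lower than both. By TPM every siELMO1 library (275.1 to 301.8) lay below every Mock library (304.3 to 328.0). RAC1 was 1.55-fold higher in siELMO1 than in siNT (log2 0.63 ± 0.05, edgeR adjusted p = 7.9e-09), while the log2 difference from Mock was -0.09 ± 0.05 (edgeR adjusted p = 0.19). That difference from Mock newly passed in 2 of 6 fits that left out 1 library, and ranged from -0.15 to -0.03. At 24 h it was at 246, 261 and 254 CPM in Mock, 230.3, 224 and 218 CPM with siNT, and 241, 249 and 251 CPM with siELMO1. The siELMO1 libraries were 1.10-fold above siNT (log2 0.14 ± 0.05, edgeR adjusted p = 0.032), a call lost without siNT replicate 2 or 3 or siELMO1 replicate 2 or 3 at 24 h (adjusted p = 0.069, 0.097, 0.074 and 0.084) and when library totals replaced the TMM scaling (adjusted p = 0.101). From Mock they differed by -0.04 ± 0.05 on the log2 scale. In these bulk libraries, a change in the cells that made up a culture and a change in RNA per cell cannot be told apart.

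**Figure D3:**
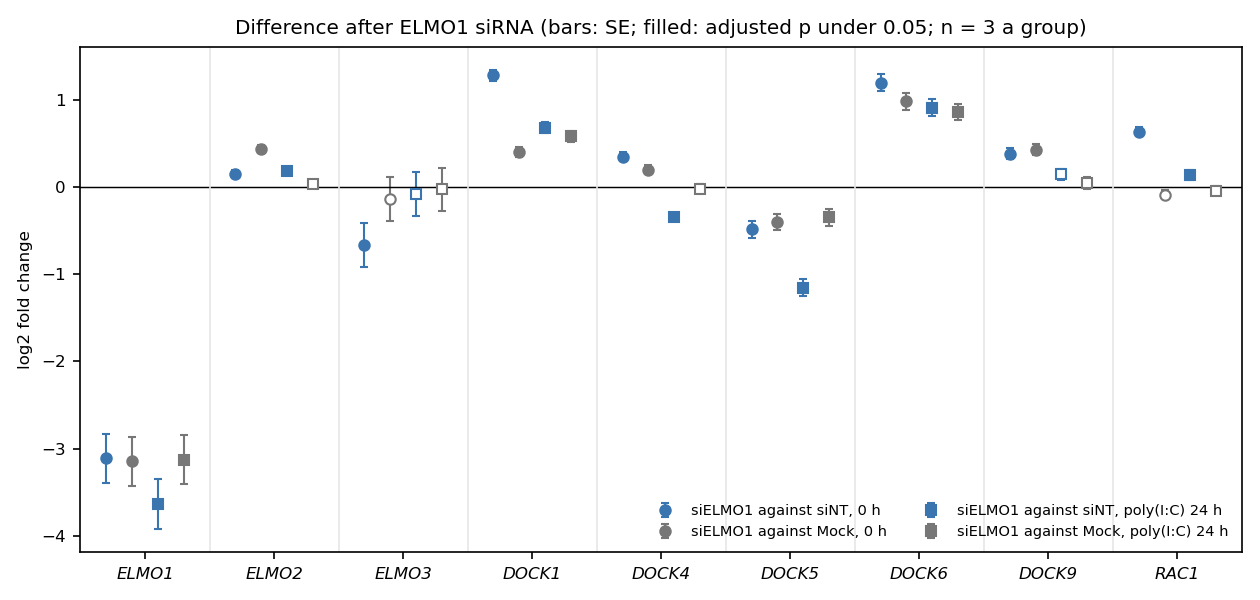
Log2 fold changes of the 9 genes in siELMO1 against siNT (blue) and Mock (grey) at 0 h (circles) and 24 h after poly(I:C) (squares), with bars for the SE; filled points passed an adjusted p of 0.05. The 4 comparisons sit together for ELMO1, between -3.64 and -3.11, and for DOCK6, between 0.86 and 1.20, and part for DOCK1, DOCK4, DOCK5 and RAC1.

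The 2 controls themselves differed in 4 of the 9 genes at 0 h, where 51.6% of all genes were called. DOCK1 was 1.84-fold lower in siNT than in Mock (log2 -0.88 ± 0.06, edgeR adjusted p = 2.2e-09) and RAC1 was 1.65-fold lower (log2 -0.72 ± 0.05, edgeR adjusted p = 3.9e-09). DOCK4 was lower by 1.11-fold and ELMO2 higher by 1.22-fold. For DOCK1 and RAC1 at 0 h, these log2 values exceeded in size those of siELMO1 against Mock (0.41 and -0.09), which was not tested as a difference. At 24 h 4 of 9 differed again (background 50.2%), with DOCK5 1.75-fold higher in siNT (log2 0.81 ± 0.10, edgeR adjusted p = 2.0e-06), DOCK4 higher by 0.33 ± 0.05 on the log2 scale, ELMO2 1.11-fold lower and RAC1 1.13-fold lower. The ELMO2 call at 24 h was lost without Mock replicate 2, siNT replicate 1 or siNT replicate 2 (adjusted p = 0.070, 0.093 and 0.069), and the DOCK4 call at 0 h without siNT replicate 2 (adjusted p = 0.126). ELMO1 was not called between the controls, with a log2 difference of -0.04 ± 0.24 at 0 h and 0.51 ± 0.24 at 24 h (edgeR adjusted p = 0.086).

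Over poly(I:C) and 24 h more in culture, several of these genes did not change in the same direction in the 3 transfections. Between 0 h and 24 h, 7 of the 9 genes changed in Mock (3 higher, 4 lower; background 60.3%), 4 in siNT (all higher; background 53.8%) and 5 in siELMO1 (1 higher, 4 lower; background 54.9%). ELMO2 rose in all 3, by 1.56-fold in Mock (log2 0.64 ± 0.05), 1.15-fold in siNT (log2 0.20 ± 0.05) and 1.18-fold in siELMO1 (log2 0.23 ± 0.05; edgeR adjusted p = 3.5e-09, 0.0023 and 5.3e-04). DOCK1 fell in Mock (log2 -0.39 ± 0.06) and in siELMO1 (log2 -0.22 ± 0.06) and rose in siNT (log2 0.38 ± 0.06; edgeR adjusted p = 2.1e-05, 0.0052 and 4.1e-05). RAC1 had the same pattern, falling by 0.23 ± 0.05 in Mock and 0.18 ± 0.05 in siELMO1 on the log2 scale and rising by 0.31 ± 0.05 in siNT (edgeR adjusted p = 9.3e-04, 0.0059 and 7.2e-05). DOCK5 fell in Mock (log2 -0.63 ± 0.10) and in siELMO1 (log2 -0.57 ± 0.10), and in siNT its value was 0.10 ± 0.09 (edgeR adjusted p = 1.9e-05, 6.7e-05 and 0.41). DOCK4 rose 1.58-fold in siNT and 1.14-fold in Mock, and was at -0.03 ± 0.05 in siELMO1 on the log2 scale. DOCK6 fell 1.28-fold in siELMO1 (edgeR adjusted p = 0.0045) and 1.17-fold in Mock, where the call was lost without any one of Mock replicates 2 and 3 at 0 h and 1 and 2 at 24 h (adjusted p = 0.073, 0.069, 0.056 and 0.202). DOCK9 rose 1.17-fold in Mock (edgeR adjusted p = 0.0061) and was not called in siNT or siELMO1 (log2 0.08 ± 0.07 and -0.16 ± 0.07). Without Mock replicate 3 at 0 h, the calls in Mock fell from 7 to 4, since DOCK4, DOCK6 and DOCK9 no longer passed (adjusted p = 0.050, 0.069 and 0.078).

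**Figure D4:**
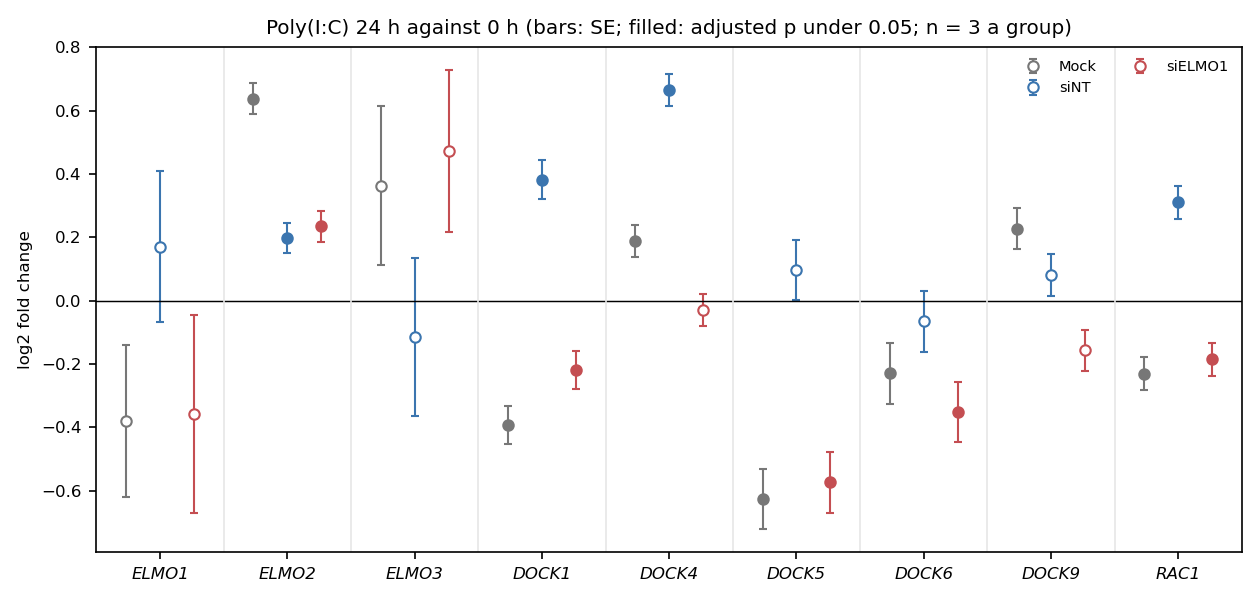
Log2 fold change from 0 h to 24 h of poly(I:C) for the 9 genes in Mock (grey), siNT (blue) and siELMO1 (red), with bars for the SE; filled points passed an adjusted p of 0.05. For DOCK1 and RAC1 the siNT point is above 0 and the Mock and siELMO1 points are below it.

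The differences between these responses were tested as interaction terms. The part of the cell death in siNT cultures in these terms was not tested. The response in siELMO1 was lower than in siNT for 4 of 9 genes (background 34.5%), namely DOCK1 (difference of log2 fold changes -0.60 ± 0.09), DOCK4 (-0.69 ± 0.07), DOCK5 (-0.67 ± 0.13) and RAC1 (-0.49 ± 0.07; edgeR adjusted p from 7.3e-07 to 8.4e-04). Against Mock it was lower for 3 of 9 (background 28.3%), namely ELMO2 (-0.40 ± 0.07), DOCK9 (-0.38 ± 0.09) and DOCK4 (-0.22 ± 0.07; edgeR adjusted p = 3.0e-04, 0.0046 and 0.030). For DOCK1, DOCK5 and RAC1, the siELMO1 and Mock responses differed by 0.18 ± 0.08, 0.05 ± 0.13 and 0.05 ± 0.07 and were not called (edgeR adjusted p = 0.14, 0.81 and 0.69). The siNT response differed from the Mock response in 5 of 9 (background 31.0% of genes), higher for DOCK1 (0.78 ± 0.09), DOCK5 (0.72 ± 0.13), RAC1 (0.54 ± 0.07) and DOCK4 (0.48 ± 0.07) and lower for ELMO2 (-0.44 ± 0.07; edgeR adjusted p from 2.7e-06 to 4.8e-04). With the replicate number as a block, DOCK6 (-0.29) and DOCK9 (-0.24) also passed between siELMO1 and siNT (edgeR adjusted p = 0.044 and 0.048). The siELMO1 against Mock call for DOCK4 was lost in 8 of 12 fits that left out 1 library, with adjusted p up to 0.110.

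The transcript table split the gene counts among isoforms. For ELMO1, 11 of 19 annotated transcripts had any counts, and ELMO1-201, the full-length coding transcript of 5092 bases, held between 84.5% and 98.1% of ELMO1 counts by condition mean. The level of ELMO1-201 in siELMO1 against siNT fell by 3.24 at 0 h and fell by 3.51 at 24 h on the log2 scale (edgeR over all transcripts, adjusted p = 6.3e-05 and 8.9e-05). ELMO1-209, which encodes the same length of protein from a shorter transcript, held 31.2% of the counts in 1 Mock library at 0 h, at most 7.3% in any other library, and 0% in all siELMO1 libraries, whose counts per gene were 22 or fewer. RAC1-201 held 96.1% to 98.7% of RAC1 counts and moved with its gene at 0 h (log2 0.68 ± 0.05 against siNT, adjusted p = 5.0e-07). DOCK5-201 held 95.9% to 97.6% of DOCK5 counts and fell by 0.45 at 0 h and 1.10 at 24 h on the log2 scale (edgeR adjusted p = 0.016 and 3.7e-05). DOCK1-206, the longer of the 2 main DOCK1 transcripts, rose by 1.18 at 0 h on the log2 scale (edgeR adjusted p = 0.0041), and DOCK6-207 by 1.97 (edgeR adjusted p = 0.042). The DOCK6-207 call was lost when any 1 of 5 libraries was left out, siELMO1 replicate 3 giving the highest adjusted p of 0.157, and the DOCK5-201 call at 0 h was lost without replicate 1 of siNT or of siELMO1 (adjusted p = 0.075 and 0.054). Of 36 transcript shares compared between siELMO1 and the 6 controls of the same time, none passed after adjustment, and 2 had an unadjusted p under 0.05 in the exact two-sided permutation test, whose smallest possible p is 0.0238. At least 18 of the 36 shares would have had to reach that p for any to pass, so the absence of calls was all but fixed by the design. Among the ELMO3 transcripts, single libraries placed either all or none of the counts on one transcript, so no ELMO3 isoform is described.

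Other genes of the pathway were counted in 7 lists, 80 of whose 106 genes passed the filter, and 32 rose and 25 fell in siELMO1 against siNT at 0 h. Their median log2 fold change was 0.04, against 0.00 for all genes and 0.35 for the 9 genes above. At 24 h 24 rose and 34 fell, with a median of -0.06 against -0.01 for all genes and 0.14 for the 9. Against Mock the counts were 31 higher and 20 lower at 0 h, and 28 higher and 18 lower at 24 h. The shares of the 80 genes called were 71.25% and 72.5% against siNT and 63.75% and 57.5% against Mock at 0 h and 24 h, beside the 62.6%, 52.6%, 50.2% and 43.6% of all genes given above. The counts of single lists below, all against siNT, are to be read beside the same shares. Over all genes, 4750 were higher and 4752 lower against siNT at 0 h, and 3950 and 4025 at 24 h.

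Of 5 other DOCK genes described here, 3 passed the filter, and 1 was lower than siNT at 0 h and 1 higher than siNT at 24 h. DOCK2, the main DOCK gene of blood cells, was near 1 CPM and higher than both controls at 24 h (log2 1.52 against siNT and 1.26 against Mock, edgeR adjusted p = 0.0020 and 0.0082). Its mean in siELMO1 was 1.40 CPM at 0 h and 1.33 CPM at 24 h. The controls were lower at 24 h, going from 0.80 to 0.46 CPM in siNT and from 1.02 to 0.55 CPM in Mock. DOCK10, of the subgroup of DOCK9, was 0.55 higher than Mock at 0 h on the log2 scale but at -0.05 against siNT, and DOCK3 was higher than Mock (0.33) and lower than siNT (-0.75). DOCK8 and DOCK11 had too few counts to be tested. Per length, DOCK4 and DOCK10 were the most abundant of the DOCK genes described here in every condition, at 72.5 ± 1.7 and 53.5 ± 2.6 TPM in Mock at 0 h. DOCK6 went from 24.2 ± 1.2 TPM in Mock and 19.3 ± 1.8 TPM in siNT to 44.9 ± 2.8 TPM in siELMO1. DOCK1 stood at 39.4 ± 1.5, 20.1 ± 2.1 and 49.2 ± 2.1 TPM in the same order.

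Of 11 Rac family and related GTPases, 5 rose and 4 fell against siNT at 0 h, and 2 rose and 6 fell at 24 h. RAC2, the RAC gene best known from blood cells, was highest in siNT, where RAC1 was lowest. At 0 h RAC2 was at 37.2, 35.7 and 34.6 CPM in Mock, 73.1, 77.9 and 75.6 CPM with siNT, and 48.9, 58.1 and 54.9 CPM with siELMO1. The 3 groups did not overlap, with siELMO1 between the controls. Per length RAC1 held 77.2% of RAC1, RAC2 and RAC3 transcripts in Mock, 54.3% in siNT and 70.9% in siELMO1 at 0 h. At 24 h the shares were 83.4%, 58.0% and 74.6%. RHOB, a membrane-traffic GTPase, rose against both controls at both times (log2 0.68 and 0.64 at 0 h, 1.38 and 0.81 at 24 h).

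Of 14 upstream partners tested, 6 rose and 6 fell against siNT at 0 h, and 4 rose and 10 fell at 24 h. PTK2, the focal adhesion kinase, rose against both controls at 0 h (log2 0.96 against siNT and 0.60 against Mock, edgeR adjusted p = 3.6e-12 and 3.6e-09). EZR, which encodes the membrane-actin linker ezrin, fell (log2 -0.64 against each control, edgeR adjusted p = 1.2e-08 and 2.3e-08). GULP1, an adaptor of engulfment, fell at 24 h (log2 -0.83 and -1.33, edgeR adjusted p = 0.0014 and 1.9e-05) from levels of 2.58 ± 0.05 CPM in siNT and 3.66 ± 0.62 CPM in Mock. Of 13 other Rac activators, 6 rose and 2 fell at each time against siNT. KALRN, an activator of RAC1, rose at 0 h by 1.40 against siNT and 0.83 against Mock on the log2 scale. ECT2, whose main role is in cytokinesis, fell against both at 0 h, from 267 ± 6.8 CPM in siNT and 241 ± 3.7 CPM in Mock to 94.6 ± 3.2 CPM (edgeR adjusted p = 1.7e-14 and 8.0e-14).

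Of 14 Rac inhibitors, 6 rose and 2 fell against siNT at 0 h, and 5 rose and 5 fell at 24 h. RACGAP1, which like ECT2 works mainly in cytokinesis, fell at 0 h from 155 ± 4.6 CPM in siNT and 128 ± 0.4 CPM in Mock to 32.3 ± 0.4 CPM in siELMO1. Of 22 Rac effectors, 7 rose and 9 fell at 0 h, and 4 rose and 10 fell at 24 h. CYFIP1, the subunit through which RAC1 binds the WAVE actin-nucleating complex, was at 255, 257 and 248 CPM in Mock, 291, 279.5 and 287 CPM with siNT, and 101, 105 and 106 CPM with siELMO1 at 0 h. It was clearly separated from both controls, with log2 fold changes of -1.46 ± 0.04 against siNT and -1.28 ± 0.04 against Mock (edgeR adjusted p = 2.0e-14 and 1.2e-13). LIMK1, the kinase that inactivates cofilin, rose by 1.00 and 0.86 on the log2 scale (edgeR adjusted p = 1.0e-10 and 1.4e-09), and PARD6A, a polarity protein near 1 CPM, fell by 0.95 and 1.74 (edgeR adjusted p = 0.045 and 0.0012).

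Of 12 NADPH oxidase genes, an enzyme family partly under the control of RAC proteins, 3 passed the filter, and 2 rose and 1 fell against siNT at each time. NOX4, the main catalytic subunit in endothelium, which works without RAC1, was at 19.4, 21.2 and 21.2 CPM in Mock, 13.2, 11.7 and 13.9 CPM with siNT, and 39.0, 43.4 and 41.1 CPM with siELMO1 at 0 h. It rose by 1.67 ± 0.11 against siNT and by 1.00 ± 0.11 against Mock on the log2 scale (edgeR adjusted p = 3.3e-10 and 3.9e-07). CYBA, its membrane partner, rose by 0.53 and 0.73, and NOX1, a catalytic subunit that works together with RAC1, fell by 1.51 against siNT and by 1.14 against Mock. NOX1 stayed under 1 CPM in the mean of every condition.

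**Figure D5:**
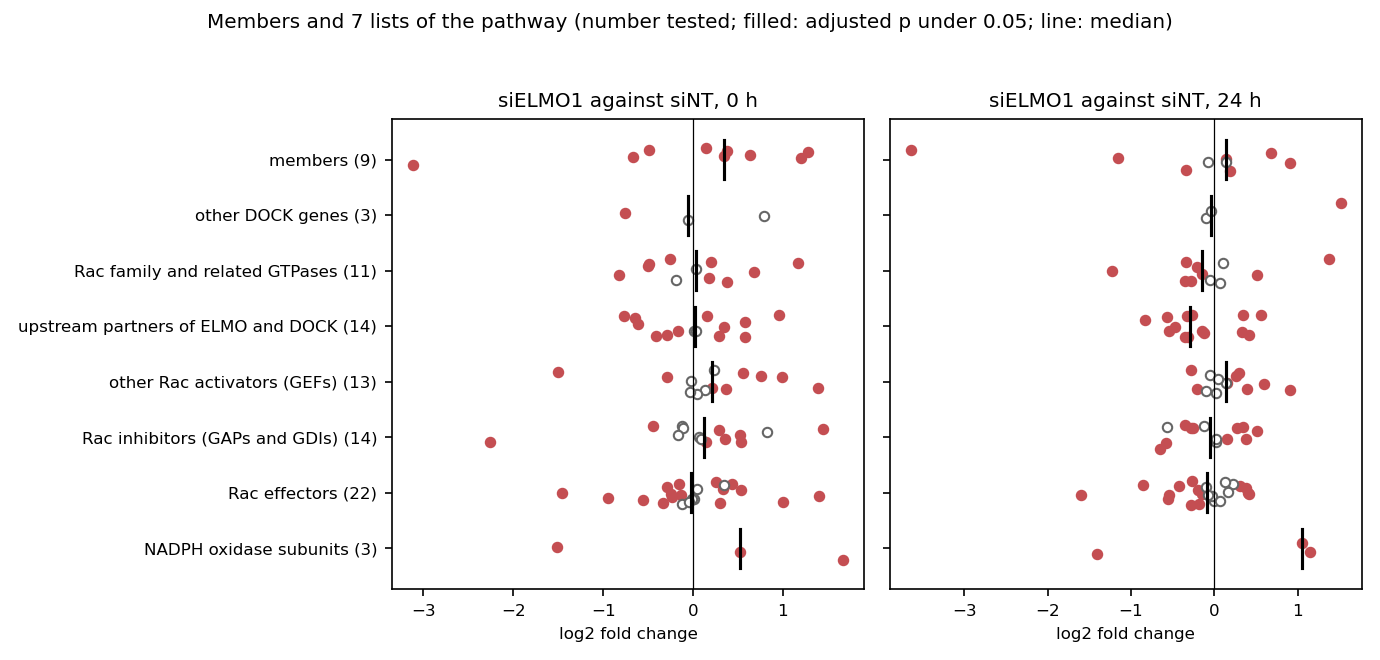
Log2 fold changes in siELMO1 against siNT at 0 h (left) and 24 h (right) for the 9 genes and for the tested genes of 7 pathway lists, one point a gene, filled where the adjusted p was under 0.05, with a line at the median. Points of each list lie on both sides of 0 at both times, and ELMO1 is the leftmost of the 9 genes at -3.11 and -3.64.

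The genes whose pattern over the 18 libraries was most like each of the 9 were found by the root mean square difference of centred log2 CPM among 13609 genes with a mean of at least 1 CPM. For ELMO1 they were SYT11 (0.52), SLC7A11 (0.54) and ENSG00000288971 (0.56), beside an SD of 1.49 for ELMO1 itself and of 0.16 to 0.50 for the other 8. For the others the first was MLLT3 for ELMO2 (0.082), ARHGEF10L for ELMO3 (0.191), SMARCC1 for DOCK1 (0.104) and KDM5C for DOCK4 (0.073). It was NOS3, the endothelial nitric oxide synthase gene, for DOCK5 (0.160), PBXIP1 for DOCK6 (0.121), CHD1 for DOCK9 (0.069) and DENR for RAC1 (0.079). At 0 h the mean level of NOS3 was highest with Mock (333 CPM), then with siNT (299 CPM) and siELMO1 (237 CPM). After poly(I:C) it was highest with siNT (363 CPM), as DOCK5 was, then with Mock (173 CPM) and siELMO1 (149 CPM).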

How the data were processed

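Total RNA of the 18 libraries was sequenced after stranded poly(A) selection. Per the labels and the methods, the authors aligned reads with STAR to GRCh38 and estimated counts with StringTie on GENCODE annotation. The deposited gene and transcript tables hold these estimated counts, with no normalization, and whether strand was used in counting is not given in the sources used here. Library totals were 40374756 to 73850946 counts, so 3 counts correspond to 0.038 to 0.075 CPM. No value column was left unassigned.

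Counts were rounded to whole numbers. The filter kept 15167 of 62754 genes, those whose counts summed to 100 or more and whose highest library reached 1 CPM. Counts were scaled by TMM (CPM use the same factors) and fitted with edgeR 4.0.16 (glmQLFit, glmQLFTest) in one model of 6 group means over all 18 libraries, p-values being Benjamini-Hochberg adjusted over all genes tested. A call is an adjusted p under 0.05. DESeq2 1.42.0, limma-voom (limma 3.58.1) and other settings served as alternatives. The script for these fits was tested on simulated counts. TPM were computed from transcript counts and GENCODE lengths. The coordinates and sequences are from GENCODE v44 on GRCh38.

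Replicates were 3 biological replicates per group as the methods state. Whether the replicate numbers pair libraries was checked by the correlation of residual log2 CPM over 9644 genes. For the 24 h libraries of Mock and siNT, every one of 3 pairs exceeded 0.1 (0.250 to 0.335), and the block changed no call there or in the siNT minus Mock response. So did siELMO1 at 0 h with siNT at 24 h (0.119 to 0.218), which are compared only within the siELMO1 minus siNT response, where blocked values are given. No other pair of groups had all 3 above 0.1. Libraries of unlike number were not correlated for reference, so these values cannot show whether the numbers pair libraries. No replicate pair agreed within sampling noise (chi-square per degree of freedom 10.2 to 79.1).

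All 9 genes are named in every condition. From each pathway list, up to 3 genes per time were named that were called against both controls in the same direction with a fold above 1.5 in each. The other DOCK genes, RAC2 and RAC3 were named for the families. From the lists 2 genes were left out and are not reported here. The members and lists were chosen with earlier results of these data known. Neither siRNA nor protein sequences were used here.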

Additional observations from a re-analysis of the deposited data

Results flagged for a closer look

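The response to poly(I:C) differed between transfections, by the edgeR interaction term over all genes tested, in 12 cases among the 9 genes. Between siELMO1 and siNT the log2 response was lower in siELMO1 by -0.60 for DOCK1, -0.69 for DOCK4, -0.67 for DOCK5 and -0.49 for RAC1. Between siELMO1 and Mock it was lower in siELMO1 by -0.40 for ELMO2, -0.22 for DOCK4 and -0.38 for DOCK9. Between siNT and Mock it differed by -0.44 for ELMO2, 0.78 for DOCK1, 0.48 for DOCK4, 0.72 for DOCK5 and 0.54 for RAC1. These 3 comparisons share libraries pairwise. The groups have 3 libraries each, so no outlier test was run on single libraries. The library that stood apart, siELMO1 replicate 1 at 0 h, and every other library were left out in turn.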

How the results depend on the processing

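Of the alternatives that kept all libraries, 832 values of the 9 genes kept direction and side of the threshold, 16 newly passed it, 13 no longer passed it and 2 changed sign, both uncalled, DOCK9 for siNT against Mock at 0 h with library totals (-0.013) and ELMO1 for the siELMO1 minus Mock response with limma-voom (-0.0080). Requiring a fold above 2 as well left 3, 1, 2 and 1 of the 9 genes called in siELMO1 against siNT at 0 h, Mock at 0 h, siNT at 24 h and Mock at 24 h, and 0 in each of the other 8 comparisons. The 5 transcripts called became 3 with no filter on low counts, which tests more transcripts. Library totals in place of TMM shifted the median log2 fold change of all genes after poly(I:C) in Mock by -0.12, where 37.9% rather than 50.9% of called genes were higher, and there DOCK4 and DOCK9 lost their calls (0.07 and 0.11). The share higher moved from 55.5% to 43.9% in siELMO1 against Mock at 0 h, from 48.6% to 60.4% for siELMO1 minus Mock and from 48.3% to 64.8% for siNT minus Mock. Other causes were not tested.

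With the replicate number as a block, the members called were 9, 7, 7 and 4 in the 4 siELMO1 comparisons as without it, 5 in place of 4 for siNT against Mock at 0 h, 6 in place of 5 for poly(I:C) in siELMO1 and 6 in place of 4 for the siELMO1 minus siNT response, and the same number elsewhere. The newly called genes were DOCK6, DOCK9, and DOCK6 with DOCK9 (adjusted p 0.022 to 0.048). In the first and second of these not all correlations were above 0.1. In the third siELMO1 at 0 h and siNT at 24 h had all 3 correlations above 0.1 and the other pairs of its groups did not. Residual correlations of same-numbered libraries ran from -0.25 to 0.45 over the pairs of groups.

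Leaving out 1 library, members called ranged from 7 to 9 for siELMO1 against siNT at 0 h, 3 to 5 for siNT against Mock at 0 h, 4 to 7 for poly(I:C) in Mock and 4 to 6 for siELMO1 minus siNT (6 without siELMO1 replicate 3 at 24 h), where DOCK9 newly passed in 4 of 12 fits, and called transcripts from 3 to 5 (3 without siELMO1 replicate 1 at 0 h). Signs changed only for uncalled values. The ranges were -0.27 to 0.10 (siNT, 24 h), -0.11 to 0.052 (Mock, 24 h), -0.13 to 0.24 (siNT against Mock, 24 h), -0.30 to 0.074 (poly(I:C) in siNT) and -0.020 to 0.36 (siELMO1 minus Mock) for ELMO3. For ELMO1 they were -0.13 to 0.032 (siNT against Mock, 0 h) and -0.23 to 0.30 (siELMO1 minus Mock). For DOCK4 in siELMO1 against Mock at 24 h the range was -0.052 to 0.0035, for DOCK9 in siNT against Mock at 0 h -0.029 to 0.11, for DOCK6 in siNT against Mock at 24 h -0.16 to 0.020 and for ELMO2 in siELMO1 minus siNT -0.0017 to 0.090. In siELMO1 minus Mock, DOCK5 ranged from -0.037 to 0.18 and RAC1 from -0.0071 to 0.11. Few counts limit the precision for ELMO1 and ELMO3.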
